A study of Arabidopsis thaliana with 12 samples.

Results

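The nuclear genes for the light-harvesting antennae and for the photosystem subunits of Arabidopsis thaliana were followed in 3 mutants and their wild type. Of the 32833 genes in the deposited count table, 41 were chosen by locus, from a list by function that sets no condition on their levels. The choice was made with earlier results of these data known. The 41 are 14 LHCB genes (antenna of photosystem II), 6 LHCA genes (antenna of photosystem I), 12 PSA genes (subunits of photosystem I) and 9 PSB genes (subunits of photosystem II). RNA was sequenced from whole seedlings on soil, 12 days after germination, with 3 libraries each of nrpb2-3, ssrp1-2, spt16-2 and the wild type Columbia-0. The mutation nrpb2-3 lies in the gene for the second-largest subunit of RNA polymerase II. The mutations ssrp1-2 and spt16-2 each lie in the gene for 1 subunit of FACT, a histone chaperone that travels with the polymerase. All 4 groups shared 4 days of stratification of the seeds at 4 °C and growth in long days at about 21 °C. Beyond these, the labels name no transgene, agent or background mutation common to the groups, and they do not say whether the replicates were separate sowings (so each p-value reflects library-to-library spread only, possibly just technical). The title of the study names the recruitment of FACT and a role of the histone variant H2A.Z in transcription. These libraries bear on how transcript levels differ in each mutant.

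Both photosystems sit in the thylakoid membrane of the chloroplast. Their reaction-centre cores are encoded mostly in the chloroplast genome, whereas all antenna proteins and many peripheral subunits are encoded in the nucleus, made in the cytosol and imported. The antenna proteins bind chlorophyll and pass light energy to the cores, and in green leaves their transcripts are among the most abundant of all. Light, the clock, the chlorophyll pathway and the state of the chloroplast are known to act on these nuclear genes, in part through the GLK transcription factors.

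Promoter sequences of 5 members are shown for the genes the results turn on: the most abundant antenna gene (LHCB1.3), the gene with the lowest fold change of all (LHCB4.3), the LHCA gene with the lowest (LHCA3), the photosystem I subunit with the highest CPM averaged over the 12 libraries (PSAF), and the PSB gene with the lowest fold change in both FACT mutants (PSBQ2). Each is the 250 bases upstream of the annotated start in RefSeq's TAIR10.1, 5′ to 3′ on the gene's strand. LHCB1.3 lies at chr1:10477635-10477884 on the plus strand, LHCB4.3 at chr2:16745378-16745627 on the plus strand and LHCA3 at chr1:22699465-22699714 on the plus strand. The window of PSAF lies at chr1:11216142-11216391 on the minus strand and that of PSBQ2 at chr4:2673244-2673493 on the minus strand. Capitals mark every match, on either strand, to 7 motifs: GATAAG (the I-box), CACGTG (the G-box), CCAATC and AGATTC (letters reported for GLK factors), AATATCT and AAAATCT (cores of the evening element and of the CCA1 site, both clock motifs) and TATAAA (the TATA box).
LHCB1.3: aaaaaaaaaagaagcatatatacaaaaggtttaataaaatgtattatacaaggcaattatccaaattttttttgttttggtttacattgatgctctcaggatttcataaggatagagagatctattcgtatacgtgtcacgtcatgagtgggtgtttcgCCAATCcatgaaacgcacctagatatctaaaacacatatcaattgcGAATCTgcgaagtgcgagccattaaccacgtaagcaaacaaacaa
LHCB4.3: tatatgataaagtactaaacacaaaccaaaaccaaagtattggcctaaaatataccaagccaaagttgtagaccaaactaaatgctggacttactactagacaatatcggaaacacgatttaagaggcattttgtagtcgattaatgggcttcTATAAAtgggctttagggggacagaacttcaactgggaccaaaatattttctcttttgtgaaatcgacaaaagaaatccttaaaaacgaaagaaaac
LHCA3: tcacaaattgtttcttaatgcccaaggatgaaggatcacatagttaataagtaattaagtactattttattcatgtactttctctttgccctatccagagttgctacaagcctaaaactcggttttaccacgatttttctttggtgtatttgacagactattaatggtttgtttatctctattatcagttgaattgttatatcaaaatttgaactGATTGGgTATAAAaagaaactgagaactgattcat
PSAF: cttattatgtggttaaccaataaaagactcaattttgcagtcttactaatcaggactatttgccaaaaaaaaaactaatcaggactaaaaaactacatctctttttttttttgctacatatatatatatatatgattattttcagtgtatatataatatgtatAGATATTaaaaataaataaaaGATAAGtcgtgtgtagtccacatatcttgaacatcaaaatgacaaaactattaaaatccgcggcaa
PSBQ2: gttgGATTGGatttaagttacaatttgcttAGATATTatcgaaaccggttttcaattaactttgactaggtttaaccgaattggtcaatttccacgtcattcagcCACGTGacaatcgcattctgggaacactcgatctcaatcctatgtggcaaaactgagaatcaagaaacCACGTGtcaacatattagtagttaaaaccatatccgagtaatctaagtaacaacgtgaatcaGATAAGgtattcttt

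No motif of the 7 contains another, and a match is a description of letters, not a site. Of the 41 members, 11 (26.8%) held CCAATC, against 10.4% of the promoters of 19921 tested nuclear protein-coding genes. These 11 were 7 LHCB, 3 LHCA, 0 PSA and 1 PSB genes. The G-box letters stood in 8 members (19.5%) and in 7.28% of all promoters, and the I-box letters in 9 members (22%) and 12.3%. AGATTC was found in 11 members (26.8%) against 16.2%, AAAATCT in 12 (29.3%) against 16.1%, and AATATCT in 5 (12.2%) against 10.3%. The TATA letters stood in 19 members (46.3%), close to the share of all promoters (46.2%). Members were short genes, with a median transcript of 1203 bases against 1732 over those 19921 genes, and 10 of 41 (24.4%) had 1 exon, against 15.3%. All 5 LHCB1 genes were among the 10.

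Of the 41 loci, 40 had enough counts to be tested. The remaining locus, LHCB1.5 (AT2G34420, chr2:14522524-14523568 on the minus strand in TAIR10.1), was at 0 counts in all 12 libraries. It lies wholly inside an annotated long noncoding RNA locus, AT2G08665, which was also at 0. Of 525 protein-coding loci that lie wholly inside another annotated gene, 433 (82.5%) were at 0 in every library, against 2746 of 26907 other protein-coding loci (10.2%). The 0 of LHCB1.5 therefore gives no statement on its expression. A further property of the counting touches the copies: LHCB1.1, LHCB1.2 and LHCB1.3 share 95.6 to 96.4% of their coding bases and LHCB2.1 and LHCB2.2 share 96.6%, so the split of reads between them depends on a treatment of shared reads that is not given in the sources used here. In the annotation, 17 members overlap another gene, 15 of them a tested one, and the strand setting of the counting is not given in the sources used here.

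The libraries held 39483328 to 43434901 counts, and 20471 genes were tested. The NRPB2 transcript (AT4G21710) stood at 69.2, 66.5 and 65.4 CPM in nrpb2-3 and 36.5, 47.3 and 43.0 CPM in Columbia-0, so its level does not check that label. SSRP1 (AT3G28730) stood at 20.7, 19.7 and 17.9 CPM in ssrp1-2 and 38.9, 48.4 and 44.2 CPM in Columbia-0. SPT16 (AT4G10710) stood at 27.8, 55.4 and 30.0 CPM in spt16-2 and 44.8, 62.0 and 54.6 CPM in Columbia-0. The library labelled spt16-2 replicate 2 thus does not match its label by SPT16 level, and the counts, medians and ranges of member fold changes in spt16-2 are given with and without it. The library of Columbia-0 replicate 1 had 1.23% of its counts in rRNA genes and 0.474% in organelle genes, against 0.177 to 0.495% and 0.0781 to 0.207% in the other 11. The scaling of edgeR raised the effective library size of nrpb2-3 (factors 1.21, 1.18 and 1.47) above that of the other 9 libraries (0.849 to 1.03), so all levels in CPM, unless said otherwise, are scaled to that effective size.

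The 41 genes took a large share of all counts. In nrpb2-3 they held 11.9% ± 3.23 of all counts, in ssrp1-2 17.8% ± 1.72, in spt16-2 17.0% ± 2.99 and in Columbia-0 18.9% ± 2.37 (SD, n = 3 each). Depth gives each class share a 95% Wilson interval of at most 0.00986 percentage points on either side, which covers counting error only, so the spread between libraries sets the precision. By class, LHCB took 7.82, 7.13 and 3.99% of counts in the 3 nrpb2-3 libraries and 11.5, 10.7 and 8.87% in Columbia-0, and the 2 groups did not overlap. LHCA took 1.86% ± 0.452 in nrpb2-3 and 2.91% ± 0.433 in Columbia-0, PSA 1.64% ± 0.340 and 2.58% ± 0.234, and PSB 2.11% ± 0.415 and 3.09% ± 0.386, in the same order of groups. For LHCA, PSA and PSB every nrpb2-3 library lay below all 9 others, and for LHCB the first nrpb2-3 library (7.82%) lay just above the library labelled spt16-2 replicate 2 (7.71%). The plot of class shares gives all 12 libraries.

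**Figure D1:**
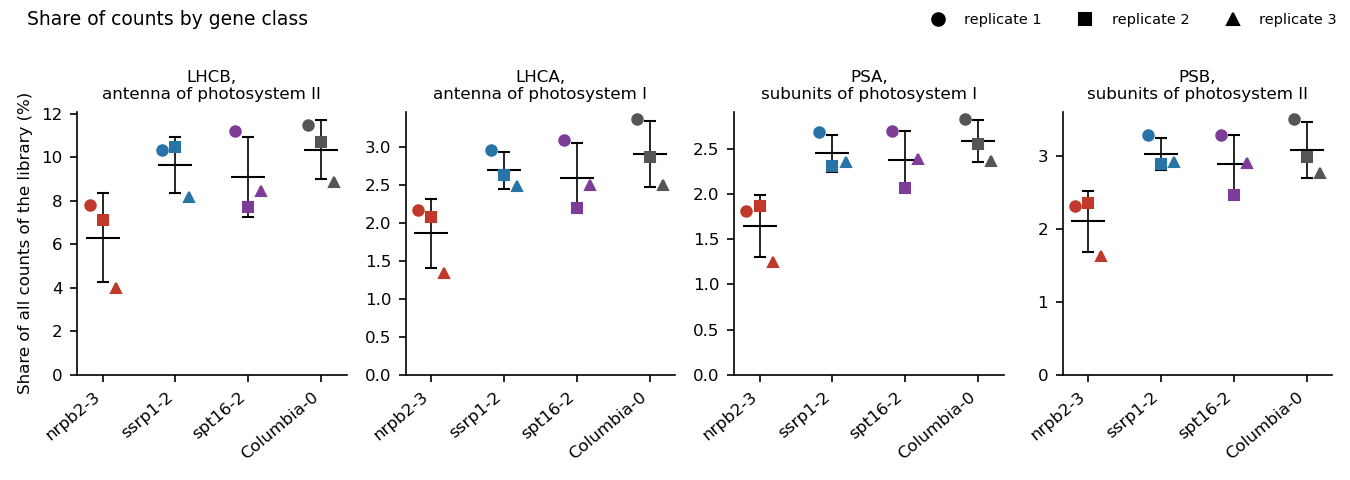
Share of all counts of a library (%) taken by each gene class in nrpb2-3, ssrp1-2, spt16-2 and Columbia-0; symbols are the 3 libraries of a genotype, horizontal lines the mean and bars the SD. In nrpb2-3 the LHCB share was 3.99 to 7.82%, against 8.87 to 11.5% in Columbia-0, and replicate 3 was the lowest nrpb2-3 library in each class.

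The comparison of nrpb2-3 with Columbia-0 asks which of these transcripts differ in level in the polymerase mutant. Of the 40 tested members, 37 fell and 0 rose (edgeR's quasi-likelihood test, p adjusted by Benjamini-Hochberg across every tested gene, threshold 0.05): 11 of 13 LHCB, 5 of 6 LHCA, 12 of 12 PSA and 9 of 9 PSB genes. Over all genes tested, 15.1% were called lower and 15.8% higher. Among the 1553 abundant genes (a mean of at least 100 CPM), 903 (58.1%) were lower and 47 higher. Most members lay far above that floor, so this set is not matched to their level. The median log2 fold change of the members was −1.13, against −0.52 for the abundant genes and 0.05 for all genes. Expressed as the median of the member ratios, nrpb2-3 held 0.456 of the Columbia-0 level. Whole seedlings were sampled, so fewer green cells and less RNA per green cell cannot be told apart.

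The 4 classes lay close together. Their medians were −1.15 for LHCB, −1.11 for LHCA, −1.17 for PSA and −1.03 for PSB, and the central 50% of all members ran from −1.20 to −1.07, an interval narrower than the SE of a typical member (median 0.27). Every nrpb2-3 library lay below every Columbia-0 library in 40 of 40 members, which held for 19.9% of all tested genes. In 33 of 40 members every nrpb2-3 library lay below all 9 other libraries, which held for 12.8% of all tested genes. The exceptions were LHCB1.2, LHCB4.2, LHCA1, LHCA6, PSAH1, PSBR and PSBX. In each of them an nrpb2-3 library lay above the library labelled spt16-2 replicate 2. Only LHCB1.2 also reached another library, with 7407 CPM in nrpb2-3 replicate 1 and 6696 CPM in ssrp1-2 replicate 3. The ratio of LHCB to PSB counts was 3.36, 3.01 and 2.45 in nrpb2-3 and 3.27, 3.58 and 3.21 in Columbia-0, and the groups overlapped.

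**Figure D2:**
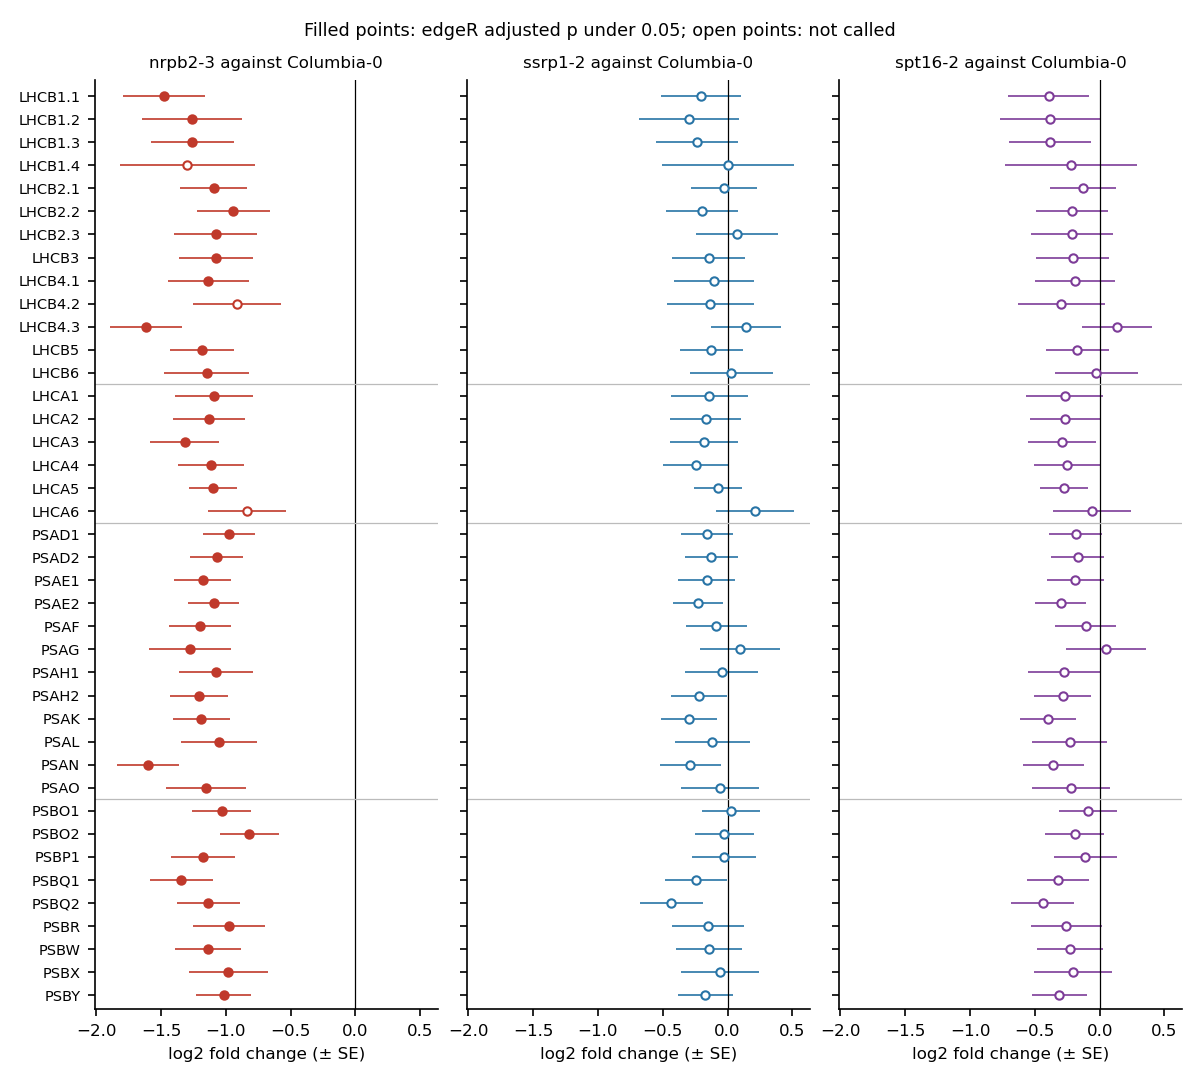
Log2 fold change ± SE of each tested member (down the page, by class) in nrpb2-3, ssrp1-2 and spt16-2, each against Columbia-0; filled points passed the test at an adjusted p under 0.05. In nrpb2-3 all 40 lie between −1.61 and −0.82 with 37 filled, and in the 2 FACT mutants none is filled.

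The scale matters to the size. With library totals in place of edgeR's factors, 31 of the 40 members were called lower and the median was −0.62, while the median of all genes moved to 0.59. Relative to the median of all genes, the members' median was −1.18 with edgeR's factors and −1.21 with library totals. A single library also moved the size: nrpb2-3 replicate 3 was the lowest of all 12 libraries in all 40 members, at a median of 0.522 times the mean of its 2 fellow libraries (0.249 for LHCB1.4 to 0.759 for PSAH2). Without it 34 members were called lower and the median was −0.89. Columbia-0 replicate 1 was the highest of all 12 libraries in 27 members, and without it 32 members were called lower (median −1.01). With both of these and the library labelled spt16-2 replicate 2 left out, 35 members were called lower and the median was −0.76.

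In the major trimeric antenna of photosystem II, formed by LHCB1, LHCB2 and LHCB3 proteins, LHCB1.3 (AT1G29930) was the most abundant member. It had 18825, 18187 and 8385 CPM in nrpb2-3, 31445, 36715 and 24189 CPM in ssrp1-2, 36097, 20733 and 26539 CPM in spt16-2 and 42016, 37112 and 29475 CPM in Columbia-0. All 3 nrpb2-3 libraries lay below the other 9, and the log2 fold change against Columbia-0 was −1.26 ± 0.32 (adjusted p = 0.0098). Per unit of length LHCB1.3 ranked 1 among all genes in each of the 12 libraries, at 24268 ± 6995 TPM (a per-length share of the library) in nrpb2-3 and 38357 ± 4711 TPM in Columbia-0 (SD, n = 3). Its neighbours on chromosome 1, LHCB1.1 (AT1G29920) and LHCB1.2 (AT1G29910), had fold changes of −1.48 ± 0.32 and −1.26 ± 0.39 on the log2 scale. LHCB1.2 averaged 5011 ± 2479.9 CPM in nrpb2-3 and 12015 ± 3062 CPM in Columbia-0 (adjusted p = 0.026), and its call was lost without nrpb2-3 replicate 2 (adjusted p = 0.060) or replicate 3 (0.077) and without Columbia-0 replicate 1 (0.085) or replicate 2 (0.065).

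LHCB1.4 (AT2G34430), the LHCB1 gene with the widest spread, had 3593, 3312 and 859 CPM in nrpb2-3, 7736, 7436 and 3982 CPM in ssrp1-2, 8394, 3905 and 4057 CPM in spt16-2 and 7713, 7268 and 4105 CPM in Columbia-0. The 3 nrpb2-3 libraries again lay below Columbia-0, but replicate 3 stood far below its fellows and the fold change of −1.30 ± 0.52 was not called (adjusted p = 0.081). LHCB2.2 (AT2G05070), a copy of the mobile antenna protein that moves between photosystems in state transitions, had 2855, 2898 and 1258 CPM in nrpb2-3, 4360.0, 4157 and 3228 CPM in ssrp1-2, 4783, 3124 and 3703 CPM in spt16-2 and 5045, 4589.9 and 3836 CPM in Columbia-0. It had the highest log2 fold change among the LHCB genes called, −0.94 ± 0.28 (adjusted p = 0.021), with no overlap between nrpb2-3 and any other group. The other copies, LHCB2.1 (AT2G05100) at −1.09 ± 0.26 and LHCB2.3 (AT3G27690) at −1.08 ± 0.32, were called too. LHCB2.2 and LHCB2.3 lost the call without Columbia-0 replicate 1 (adjusted p = 0.067 and 0.090). LHCB3 (AT5G54270), the third kind of protein in the trimers, averaged 3864 ± 1536 CPM in nrpb2-3 and 8165 ± 1054 CPM in Columbia-0 (log2 fold change −1.08 ± 0.28 (adjusted p = 0.012)).

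The minor antenna proteins sit as monomers between the trimers and the photosystem II core. LHCB4.3 (AT2G40100), a rarer copy of CP29, had 46.2, 68.7 and 31.9 CPM in nrpb2-3, 162, 187 and 146 CPM in ssrp1-2, 170.4, 120.0 and 202 CPM in spt16-2 and 136, 121 and 192 CPM in Columbia-0. Its nrpb2-3 libraries lay well below the other 9, which overlapped each other, and its log2 fold change was −1.61 ± 0.28 (adjusted p = 0.0014), the lowest of the 40 members. The common CP29 copy LHCB4.1 (AT5G01530) was at −1.14 ± 0.31 (adjusted p = 0.014). The other common copy, LHCB4.2 (AT3G08940), had 2512, 2534 and 1034 CPM in nrpb2-3, 3958, 3716 and 2760.1 CPM in ssrp1-2, 4269, 2300.3 and 2748 CPM in spt16-2 and 4866, 3763 and 2819 CPM in Columbia-0. For LHCB4.2, nrpb2-3 lay below Columbia-0 and overlapped only the library labelled spt16-2 replicate 2. The fold change of −0.91 ± 0.34 was not called (adjusted p = 0.057). LHCB5 (AT4G10340; CP26) averaged 4648 ± 1459 CPM in nrpb2-3 and 10556 ± 1922 CPM in Columbia-0, and LHCB6 (AT1G15820; CP24) 2285 ± 945 and 5069 ± 602 CPM. Both fell, LHCB5 at −1.18 ± 0.25 (adjusted p = 0.0032) and LHCB6 at −1.15 ± 0.33 (adjusted p = 0.017).

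LHCA1 to LHCA4 form the antenna belt of photosystem I. LHCA3 (AT1G61520) had 3646, 3984 and 1987 CPM in nrpb2-3, 7669, 7197 and 6293 CPM in ssrp1-2, 7941, 5210.4 and 6404 CPM in spt16-2 and 10099, 7439 and 6417 CPM in Columbia-0. No nrpb2-3 library reached any other library, and its log2 fold change of −1.32 ± 0.27 (adjusted p = 0.0027) was the lowest of its class. LHCA4 (AT3G47470), the most abundant LHCA transcript by counts, had 5172, 4968 and 2764 CPM in nrpb2-3, 9076, 7571 and 6934 CPM in ssrp1-2, 9572, 6503 and 7423 CPM in spt16-2 and 11356, 8979.5 and 7593 CPM in Columbia-0 and a fold change of −1.11 ± 0.26 (adjusted p = 0.0056). LHCA1 (AT3G54890), with 5213, 4555 and 2329.7 CPM in nrpb2-3, 8856, 8420.2 and 6026 CPM in ssrp1-2, 9432, 5104 and 6806 CPM in spt16-2 and 9398, 9335 and 6994 CPM in Columbia-0, was called at −1.09 ± 0.30 (adjusted p = 0.015), and nrpb2-3 replicate 1 slightly exceeded the library labelled spt16-2 replicate 2. LHCA2 (AT3G61470) was at −1.13 ± 0.28 (adjusted p = 0.0076).

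LHCA5 and LHCA6 attach photosystem I to the chloroplast NDH complex and are far rarer. LHCA5 (AT1G45474) averaged 99.4 ± 27.4 CPM in nrpb2-3 and 213 ± 3.3 CPM in Columbia-0, a fold change of −1.10 ± 0.19 (adjusted p = 0.00093). LHCA6 (AT1G19150) had 135, 114 and 58.2 CPM in nrpb2-3, 250.3, 232 and 152 CPM in ssrp1-2, 231, 133 and 161 CPM in spt16-2 and 188, 201 and 159 CPM in Columbia-0. It was the only LHCA gene not called, at −0.84 ± 0.30 (adjusted p = 0.054). Its nrpb2-3 libraries lay below Columbia-0, and nrpb2-3 replicate 1 slightly exceeded the library labelled spt16-2 replicate 2.

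In photosystem I, PSAD and PSAE form the stromal side where ferredoxin docks. PSAD1 (AT4G02770) had 1958, 2034 and 1213 CPM in nrpb2-3, 3344, 2913 and 2914 CPM in ssrp1-2, 3362, 2470.0 and 3168 CPM in spt16-2 and 3821, 3223 and 3191 CPM in Columbia-0 and the highest fold change among the PSA genes, −0.98 ± 0.20 (adjusted p = 0.0032), with nrpb2-3 below all 9 other libraries. Its copy PSAD2 (AT1G03130) was at −1.07 ± 0.21, and PSAE1 (AT4G28750) and PSAE2 (AT2G20260) were at −1.18 ± 0.22 and −1.10 ± 0.20. All 3 were called. On the lumenal side, where plastocyanin delivers electrons, PSAF (AT1G31330) and PSAN (AT5G64040) take part. PSAF, the PSA transcript with the highest CPM averaged over the 12 libraries, had 2727, 2988 and 1493 CPM in nrpb2-3, 5969, 5109 and 4488 CPM in ssrp1-2, 5969, 4541 and 4868 CPM in spt16-2 and 5846, 5801 and 4911 CPM in Columbia-0 and a fold change of −1.20 ± 0.24 (adjusted p = 0.0024). In nrpb2-3 alone PSAL was higher, at 2511 ± 988 CPM against 2403 ± 799 CPM for PSAF, a gap within the spread. PSAN had 1050.3, 1214 and 767 CPM in nrpb2-3, 2648, 2254 and 2629 CPM in ssrp1-2, 2678, 1981 and 2528 CPM in spt16-2 and 4294, 2539.7 and 2369 CPM in Columbia-0. Its nrpb2-3 libraries lay below all others, Columbia-0 replicate 1 stood far above its 2 fellows, and the fold change of −1.60 ± 0.24 (adjusted p = 0.00044) was the lowest of the class.

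At the edges of photosystem I, PSAG and PSAK border the antenna, and PSAH, PSAL and PSAO form the side where the mobile antenna docks. PSAG (AT1G55670) had 292, 238 and 129 CPM in nrpb2-3, 709.7, 584 and 413 CPM in ssrp1-2, 722, 401 and 529 CPM in spt16-2 and 514, 660.4 and 422 CPM in Columbia-0. Its nrpb2-3 libraries did not reach any other group, and the fold change was −1.28 ± 0.32 (adjusted p = 0.01). PSAK (AT1G30380) averaged 1115 ± 243 CPM in nrpb2-3 and 2543 ± 515 CPM in Columbia-0. Its fold change was −1.19 ± 0.22 (adjusted p = 0.0015). PSAH1 (AT3G16140) and PSAH2 (AT1G52230) were at −1.08 ± 0.29 and −1.21 ± 0.22, and PSAL (AT4G12800) and PSAO (AT1G08380) at −1.05 ± 0.29 and −1.15 ± 0.31. All 4 were called, with adjusted p-values of 0.0015 (PSAH2) to 0.015 (PSAL).

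In photosystem II, the PSBO, PSBP and PSBQ proteins form the lumenal cap of the oxygen-evolving complex. PSBO1 (AT5G66570), the most abundant PSB transcript by CPM and a protein that stabilises the manganese cluster, had 4211, 4479.8 and 2508 CPM in nrpb2-3, 8462, 7908 and 6925 CPM in ssrp1-2, 8369.6, 6086 and 7094 CPM in spt16-2 and 8555, 7689 and 6645 CPM in Columbia-0, and its fold change was −1.03 ± 0.23 (adjusted p = 0.0043). Its copy PSBO2 (AT3G50820) had 1478, 1591 and 809 CPM in nrpb2-3, 2364, 2346 and 2009 CPM in ssrp1-2, 2293, 1620.2 and 2066 CPM in spt16-2 and 2572, 2186 and 2079 CPM in Columbia-0. PSBO2 showed the highest log2 fold change of all 37 called members, −0.82 ± 0.23 (adjusted p = 0.015), its nrpb2-3 libraries stayed below the other 9, and its call was lost without Columbia-0 replicate 1 (adjusted p = 0.053). PSBQ1 (AT4G21280) had 1024, 1144 and 595 CPM in nrpb2-3, 2128, 1901 and 1886 CPM in ssrp1-2, 2145, 1333 and 2137 CPM in spt16-2 and 2726, 2105 and 2185 CPM in Columbia-0. It was the lowest PSB gene at −1.34 ± 0.24 (adjusted p = 0.0013), again with nrpb2-3 below every other library. PSBP1 (AT1G06680) averaged 2999 ± 925 CPM in nrpb2-3 and 6769 ± 1249 CPM in Columbia-0 (−1.17 ± 0.25, adjusted p = 0.0034), and PSBQ2 (AT4G05180) 1201 ± 373 and 2636 ± 781 CPM (−1.13 ± 0.24, adjusted p = 0.0038).

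The remaining PSB proteins are small subunits: PSBR (AT1G79040) helps hold PSBP, PSBW (AT2G30570) stabilises the supercomplex with the antenna, and PSBX (AT2G06520) and PSBY (AT1G67740) lie near cytochrome b559. Per unit of length PSBR stood above PSBO1, at 6568 ± 1155 and 4929.9 ± 845 TPM in nrpb2-3 and 8411 ± 1446 and 6606 ± 474 TPM in Columbia-0. All 4 fell, PSBR by 0.97, PSBW by 1.14, PSBX by 0.98 and PSBY by 1.02 on the log2 scale (adjusted p = 0.018, 0.0049, 0.027 and 0.0034). PSBR lost its call without nrpb2-3 replicate 3 (0.060) and without Columbia-0 replicate 1 (0.071), and PSBX without nrpb2-3 replicate 3 (0.066) and without Columbia-0 replicate 2 (0.079), all adjusted p-values.

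**Figure D3:**
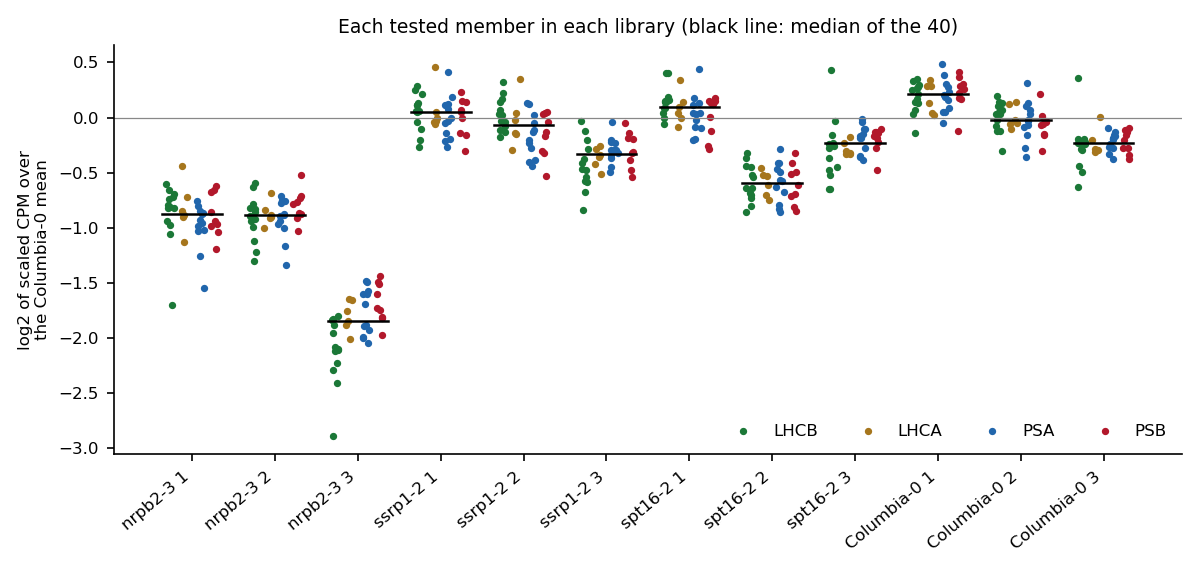
Log2 of the scaled CPM of each tested member over its Columbia-0 mean, for each of the 12 libraries; points are members coloured by class and black lines are medians of the 40. The medians were −0.87, −0.88 and −1.84 in nrpb2-3, and nrpb2-3 replicate 3 lies lowest.

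Within a genotype most members, though not all, moved together from library to library, as the plot of members by library shows. Median log2 ratios to the Columbia-0 mean were −0.87, −0.88 and −1.84 in nrpb2-3, 0.05, −0.06 and −0.33 in ssrp1-2, 0.09, −0.59 and −0.23 in spt16-2, and 0.22, −0.03 and −0.23 in Columbia-0. The library labelled spt16-2 replicate 2 was the lowest of its group in all 40 members, at a median of 0.700 times the mean of its fellows. Replicate 3 was the lowest of its group in 34 of 40 members in ssrp1-2 and in 34 of 40 in Columbia-0. The p-values of single members therefore do not come from independent evidence: the same 12 libraries give all 40.

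Neither FACT mutant gave a called member. In ssrp1-2 against Columbia-0, 0 of 40 members passed the test and 0 had an unadjusted p under 0.05, and DESeq2 and limma called 0 as well. Over all tested genes 0.103% were called lower and 0.454% higher. The median log2 fold change of the members was −0.14, with 33 of 40 negative, and they ran from −0.43 (PSBQ2, 95% interval −0.95 to 0.08) to 0.21 (LHCA6, −0.44 to 0.87). By class the medians were −0.12 (LHCB), −0.16 (LHCA), −0.14 (PSA) and −0.14 (PSB). Direction rested on single libraries here: without Columbia-0 replicate 1 the median was −0.01 with 21 of 40 negative and a lowest value of −0.17, and without ssrp1-2 replicate 3 it was −0.04, also with 21 negative. These intervals are wide, since the typical SE was 0.27, but for 38 of 40 members the interval stayed above −1. A fall of 1 on the log2 scale was thus outside the interval for all but 2 members, while smaller falls lie inside many of the intervals. That number was 34 to 39 with each library left out in turn.

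In spt16-2 against Columbia-0, 0 of 40 members passed the test, 0 had an unadjusted p under 0.05, and DESeq2 and limma called 0. Over all tested genes 0.044% were called lower and 0.376% higher. Here the median was −0.23, with 38 of 40 negative and a range from −0.44 (PSBQ2, 95% interval −0.96 to 0.08) to 0.13 (LHCB4.3, −0.46 to 0.72). Class medians were −0.21 (LHCB), −0.27 (LHCA), −0.22 (PSA) and −0.23 (PSB), and for 35 of 40 members the interval stayed above −1. Without the library labelled spt16-2 replicate 2 the median was −0.08 with 32 of 40 negative and 0 called. The range was then −0.36 (PSBQ2, 95% interval −0.97 to 0.24) to 0.31 (LHCB4.3, −0.30 to 0.92). Class medians without it were −0.08 (LHCB), −0.11 (LHCA), −0.06 (PSA) and −0.04 (PSB), and for 37 members the interval stayed above −1. That number was 16 without spt16-2 replicate 1 and 22 without Columbia-0 replicate 3. The median was −0.42 without spt16-2 replicate 1 and −0.09 without Columbia-0 replicate 1. With the 3 libraries that stand apart left out (nrpb2-3 replicate 3, the library labelled spt16-2 replicate 2 and Columbia-0 replicate 1) it was 0.04, with 12 negative.

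PSBQ2 was the lowest member in both FACT mutants. It had 1282, 1527 and 793 CPM in nrpb2-3, 2137, 1822 and 1891 CPM in ssrp1-2, 2207, 1725 and 1894 CPM in spt16-2 and 3518, 2359 and 2032 CPM in Columbia-0. Columbia-0 replicate 1 stood above its 2 fellows, and both FACT groups overlapped Columbia-0. LHCB4.3, the member with the lowest fold change in nrpb2-3, was at 0.14 in ssrp1-2 and 0.13 in spt16-2, above 0 in both and not called. The 3 comparisons share the Columbia-0 libraries, so their directions are not independent of each other.

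The 2 FACT mutants were also set against each other. In spt16-2 against ssrp1-2, 0 of 40 members were called (edgeR; 0 with an unadjusted p under 0.05, and 0 by DESeq2 or limma), where 0.0147% of all tested genes were lower and 0.0537% higher. The median was −0.09 and all 40 were negative. Without the library labelled spt16-2 replicate 2 the median was 0.06, so that direction rested on 1 library.

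The comparison of nrpb2-3 with both FACT mutants (their mean) tests directly whether the polymerase mutant differs from the FACT mutants at these genes, and it uses no Columbia-0 level. Of 40 members 37 were lower in nrpb2-3 and 0 higher (10 of 13 LHCB, 6 of 6 LHCA, 12 of 12 PSA and 9 of 9 PSB), against 15% of all tested genes lower and 15.6% higher. Of the 1553 abundant genes, 904 (58.2%) were lower. The members' median was −0.94, that of the abundant genes −0.46 and that of all genes 0.04. Class medians were −1.01 for LHCB, −0.91 for LHCA, −0.94 for PSA and −0.85 for PSB. Not called were LHCB1.2 (−0.92 ± 0.35, adjusted p = 0.06), LHCB1.4 (−1.19 ± 0.47, adjusted p = 0.077) and LHCB4.2 (−0.70 ± 0.30, adjusted p = 0.095). With the replicate number as a block, all 40 were called lower.

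LHCB4.3 again had the lowest fold change (−1.75 ± 0.26, adjusted p = 0.00048), followed by PSAG (−1.35 ± 0.29, adjusted p = 0.0045) and PSAN (−1.28 ± 0.22, adjusted p = 0.00083). LHCA3 was the lowest LHCA gene (−1.08 ± 0.24, adjusted p = 0.0044) and PSBP1 the lowest PSB gene (−1.11 ± 0.22, adjusted p = 0.0024). At the other end lay LHCB2.2 (−0.74 ± 0.25, adjusted p = 0.038), LHCA4 (−0.87 ± 0.23, adjusted p = 0.011), PSAD1 (−0.80 ± 0.18, adjusted p = 0.0049) and PSBQ2 (−0.70 ± 0.22, adjusted p = 0.025). Without nrpb2-3 replicate 3 the number called fell to 29 and the median was −0.69. Among the members lost then were LHCB1.3 (log2 fold change −0.67, adjusted p = 0.054), LHCB2.2 (−0.45, adjusted p = 0.098) and PSBQ2 (−0.48, adjusted p = 0.097). Without the library labelled spt16-2 replicate 2, 38 were called and the median was −1.04.

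Several proteins are encoded by close copies, and the share of each copy in its family does not depend on the scaling between libraries. PSBO1 took 74.5% of PSBO counts in nrpb2-3 and 77.0% in Columbia-0, PSAE1 54.6% and 56.2% of PSAE counts, and LHCB1.1 18.7% and 21.2% of LHCB1 counts, each without overlap between the 2 groups. In ssrp1-2, LHCB2.3 took 14.5% of LHCB2 counts, against 12.9% in Columbia-0, also without overlap. These were 4 of 45 shares compared (15 in each of the 3 mutants). The smallest p of the exact two-sided permutation test was 0.1, the smallest that 3 against 3 libraries allow, and the smallest after Benjamini-Hochberg adjustment over the 45 was 0.964. No shift between copies was therefore detectable with 3 libraries a group, and the split between near-identical copies rests on the counting of shared reads.

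**Figure D4:**
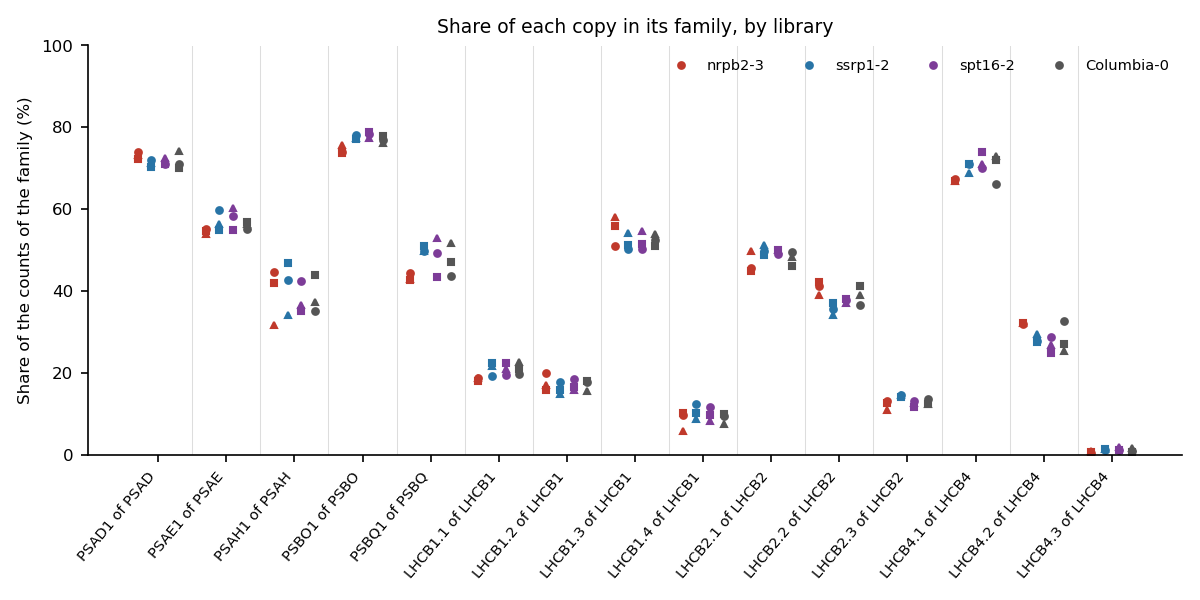
Share (%) of the counts of a gene family taken by each named copy in each library, by genotype from left to right nrpb2-3, ssrp1-2, spt16-2 and Columbia-0; circles, squares and triangles are replicates 1, 2 and 3. PSBO1 averaged 74.5% of its family in nrpb2-3 and 77.0% in Columbia-0, and the points of the 4 genotypes lie close together in most families.

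Rank by level per unit of length also shows how the set stood in the transcriptome. Of the 50 most abundant genes of a library, 27 to 31 were members in nrpb2-3 and 31 in each Columbia-0 library, and of the first 100, 33 to 35 in nrpb2-3 and 35 to 36 in Columbia-0. LHCB4.3 ranked 2589, 1796 and 3510 in nrpb2-3 and 1109, 1250 and 751 in Columbia-0.

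Genes that act beside the members were read from lists, and the same test was used. The 12 lists used from here on, like the members, were chosen with earlier results of these data known. Their counts in nrpb2-3 stand beside 15.1% of all tested genes called lower and 15.8% called higher. Of 24 genes of chlorophyll synthesis, 18 fell and 0 rose in nrpb2-3 (median −0.61). Among them were HEME2 and HEME1, uroporphyrinogen decarboxylases, at −0.87 ± 0.12 (adjusted p = 0.00032) and −0.81 ± 0.13 (adjusted p = 0.00061), and CHLI1 and CHLI2, subunits of the chelatase that inserts magnesium, at −0.72 ± 0.13 (adjusted p = 0.0013) and −0.67 ± 0.11 (adjusted p = 0.00069). Of 14 genes of electron carriers and the ATP synthase, 12 fell (median −0.99), with LFNR2, a ferredoxin-NADP reductase, at −1.11 ± 0.13 (adjusted p = 0.00012), PETC, the Rieske protein, at −1.27 ± 0.19 (adjusted p = 0.00048), and ATPD, a subunit of the ATP synthase, at −1.24 ± 0.18 (adjusted p = 0.00035). PETE1, a plastocyanin, was at −0.33 ± 0.24 (adjusted p = 0.31) and PGRL1B at 0.26 ± 0.12 (adjusted p = 0.13), and neither was called. PGRL1B was called higher by limma, with library totals (adjusted p = 0.001) and without Columbia-0 replicate 1 (0.04). Both lists had medians closer to 0 than the members.

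Of 11 relatives of the antenna and state-transition enzymes, 7 fell and 0 rose (median −0.54), with the one-helix proteins OHP2 and OHP1 at −1.32 ± 0.18 (adjusted p = 0.00028) and −1.01 ± 0.18 (adjusted p = 0.0013) and the kinase STN7 at −0.66 ± 0.13 (adjusted p = 0.0028). Of 13 assembly factors and minor subunits 12 fell, among them PSB28 at −1.35 ± 0.17 (adjusted p = 0.00015), PSB33 at −1.16 ± 0.15 (adjusted p = 0.00015) and HCF136, an assembly factor of photosystem II, at −0.86 ± 0.15 (adjusted p = 0.0012). The exception was PSBP2, a relative of PSBP1, which rose (0.80 ± 0.23, adjusted p = 0.019) and lost the call without nrpb2-3 replicate 1 (0.057) or 2 (0.066) or Columbia-0 replicate 3 (0.054). Of 5 genes of antenna import and insertion 2 fell, ALB3 (−0.72 ± 0.13, adjusted p = 0.0016) and LTD (−0.78 ± 0.15, adjusted p = 0.0018), which bring antenna proteins to and into the thylakoid. With library totals as the scale the numbers lower were 4 of chlorophyll synthesis, 8 of carriers, 2 of antenna relatives, 5 of assembly and 0 of import, and CHLI1, CHLI2, STN7, ALB3 and LTD were not called.

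Of 13 tested regulators of photosynthesis genes 0 fell and 2 rose, where 15.8% of all tested genes were called higher: PIF3, a factor that holds back greening in the dark, at 0.96 ± 0.16 (adjusted p = 0.00086), and BBX21 at 0.31 ± 0.10 (adjusted p = 0.033), whose call was lost in 9 of 15 alternative settings. The factors GLK1 (−0.29 ± 0.19, adjusted p = 0.27) and GLK2 (−0.10 ± 0.30, adjusted p = 0.82) and the light-signalling factor HY5 (0.51 ± 0.21, adjusted p = 0.085) were not called. HY5 was called higher in 3 of 15 alternative settings, by limma (adjusted p = 0.044), with library totals (0.0035) and without nrpb2-3 replicate 2 (0.036). Of 9 tested genes of chlorophyll breakdown and senescence 3 fell, where 15.1% of all tested genes were called lower. They were NYC1, NOL and PAO, enzymes that degrade chlorophyll, at −0.82 ± 0.24 (adjusted p = 0.022), −0.50 ± 0.12 (adjusted p = 0.0066) and −0.57 ± 0.16 (adjusted p = 0.016). All 3 calls were lost with library totals, and NOL then turned to 0.03. NYC1 also lost its call without nrpb2-3 replicate 1 (adjusted p = 0.067) or 3 (0.073) or Columbia-0 replicate 2 (0.082). PAO lost its call without nrpb2-3 replicate 3 (0.055) or Columbia-0 replicate 1 (0.061). Both were lost with the 3 libraries that stand apart left out (0.084 and 0.12). Of 10 clock genes 1 rose, TOC1 at 0.59 ± 0.20 (adjusted p = 0.037), lost in 6 of 15 alternatives. With library totals 8 regulators, 2 breakdown genes and 6 clock genes were called higher and none of these 3 lists had a gene called lower.

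**Figure D5:**
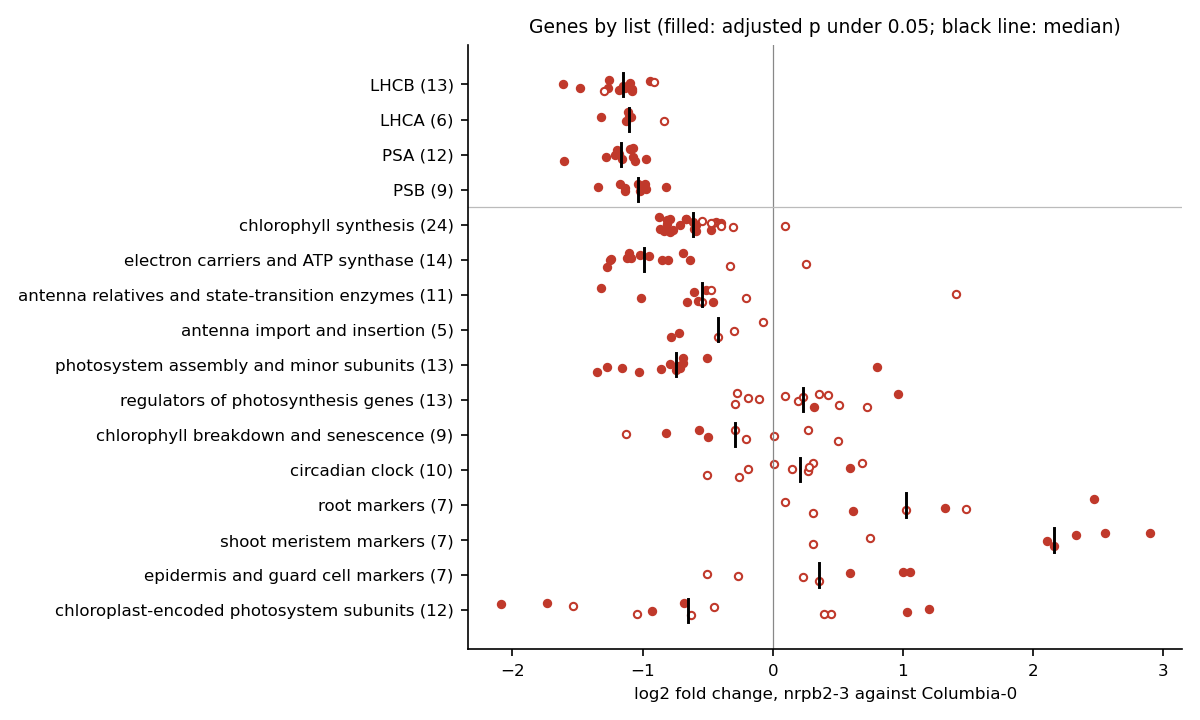
Log2 fold change of each tested gene in nrpb2-3 against Columbia-0, for the 4 member classes (above the line) and 12 other lists; filled points passed the test, black bars are medians and numbers in brackets are tested genes. Medians were −1.17 to −1.03 in the 4 classes, −0.99 for electron carriers, −0.61 for chlorophyll synthesis and 2.16 for shoot meristem markers.

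In nrpb2-3, where the members fell and 15.8% of all tested genes were called higher, some markers of other tissues rose. The summed level of 9 shoot meristem genes was 41.3, 40.7 and 48.3 CPM in nrpb2-3 and 6.26, 10.6 and 12.9 CPM in Columbia-0, and 5 of 7 tested genes rose, among them STM, a gene that keeps the meristem undifferentiated, and its relatives KNAT6 (2.55 ± 0.35, adjusted p = 0.00028) and KNAT1 (2.33 ± 0.36, adjusted p = 0.0007). The 10 root markers summed to 258, 214 and 355 CPM in nrpb2-3 and 114, 150 and 124 CPM in Columbia-0, and 3 of 7 rose: SHR (0.62 ± 0.13, adjusted p = 0.0039), PYK10 (1.32 ± 0.33, adjusted p = 0.011) and WOX5 (2.47 ± 0.84, adjusted p = 0.041). Without nrpb2-3 replicate 3, which had the highest root sum and the lowest members, 1 root marker was called. The 7 epidermis and guard cell markers summed to 637, 589 and 521 CPM in nrpb2-3 and 304, 360.5 and 353 CPM in Columbia-0, and 3 rose: PDF1 (1.05 ± 0.15, adjusted p = 0.00033), SPCH (0.59 ± 0.20, adjusted p = 0.037) and MUTE, of which 1 was called without nrpb2-3 replicate 3. Of these 7 markers 5 had a positive and 2 a negative fold change, the lowest at −0.51. With the replicate number as a block 1 of them was called lower. The calls of PYK10, WOX5, MUTE and SPCH were each lost in at least 3 of 15 alternative settings, and with library totals 6 root, 7 meristem and 5 epidermis markers were higher. No listed marker was at 0 in all libraries. In ssrp1-2 the meristem sum was 28.1 to 31.8 CPM and in spt16-2 16.6 to 26.5 CPM, both above Columbia-0, with 2 of 7 tested genes higher in ssrp1-2 (1 to 4 over the alternatives) and 0 in spt16-2, while 0 members were called there. Over all tested genes 0.454% were called higher in ssrp1-2 and 0.376% in spt16-2. With the replicate number as a block, which pairs these libraries, STM was called higher in spt16-2 (adjusted p = 0.018), as it was by DESeq2 (0.0011), with no filter (0.033) and with library totals (0.047), and not without the library labelled spt16-2 replicate 2. The meristem sums of the other 2 spt16-2 libraries were 16.6 and 18.8 CPM. The part of tissue make-up in the fall of the members was not tested.

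Chloroplast-encoded subunits of the same photosystems had low levels in these libraries, and the reason was not tested. Their sum over 13 genes was 29.9, 27.3 and 44.8 CPM in nrpb2-3 and 89.7, 39.6 and 42.4 CPM in Columbia-0. Of 12 tested, 4 fell and 2 rose, where 15.1% of all tested genes were called lower and 15.8% higher. The photosystem II core genes psbA (−2.09 ± 0.42, adjusted p = 0.0041), psbK (−0.93 ± 0.30, adjusted p = 0.03) and psbB (−0.68 ± 0.23, adjusted p = 0.037) and psaJ (−1.73 ± 0.47, adjusted p = 0.017) were lower, and psaA and psaB (1.03 ± 0.34 (adjusted p = 0.033) for psaB), the core pair of photosystem I, were higher. The calls of psbK, psaJ, psaA and psaB were each lost in at least 2 of 15 alternative settings. Without nrpb2-3 replicate 3, 3 were lower and 0 higher, and with library totals 1 was lower and 3 higher. Without Columbia-0 replicate 1, 1 was lower and 1 higher, so at least 1 of psbA and psbB lost its call there too. The same held with library totals, and with the 3 libraries that stand apart left out (1 lower and 1 higher). Columbia-0 replicate 1, with the largest organelle share, also had the largest sum of these genes. No nuclear PSA or PSB member was called higher in nrpb2-3.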

How the data were processed

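RNA libraries of whole seedlings (12 libraries, 4 genotypes with 3 each) were grouped by the genotype in the labels. The authors deposited counts per gene, which the submitters' processing notes tie to fastp 0.23.4, HISAT2 2.2.1 and TAIR10. Which tool counted, with what strand option and how it handled multi-mapped reads, is not given in the sources used here. They also deposited a signal table named as TPM whose columns sum to 652496 to 1181546. It is a count over length times a library factor, so it was rescaled to TPM, with equal sums per library, for levels per length, and used as deposited in 1 alternative.

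The deposited counts went into edgeR 4.0.16 (R 4.3.3) with TMM factors. filterByExpr at a minimum count of 10 kept 20471 of the 26456 genes with any count. The 12 libraries were fitted together by genotype with the robust quasi-likelihood method, and a gene was called where its Benjamini-Hochberg p over these genes was below 0.05. Fold changes are log2 ± SE, and intervals are at 95%. There were 5 comparisons. The alternatives used DESeq2 1.42.0, limma 3.58.1 on log2 of the deposited signal plus 1, other size factors, no filter, library totals, only the libraries compared, scaling from genes outside photosynthesis, the replicate number as a block, and each library left out in turn. The removal of 3 libraries together was chosen after seeing the data. A quasi-likelihood fit on simulated counts was checked first.

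The members, the 12 other lists (140 entries) and the rule for named genes were chosen with earlier results of these data known. The rule names, per class, the lowest and highest called fold change, exceptions and the most abundant member, and from each other list up to 4 called genes with the smallest adjusted p and any gene said not to be called. Gene names, coordinates and promoters came from RefSeq's TAIR10.1 with Biopython 1.88; all 41 members matched, and 285 organelle or other loci of the table did not. Same-numbered libraries correlated over 0.1 in every pair for spt16-2 with Columbia-0 (0.122, 0.347 and 0.315) and between the mutants (0.139 to 0.340), but not in every pair for nrpb2-3 with Columbia-0 (0.024, 0.261 and 0.169) or ssrp1-2 with Columbia-0 (−0.051, 0.375 and 0.228).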

Additional observations from a re-analysis of the deposited data

How the results depend on the processing

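The number of members called lower in nrpb2-3 against Columbia-0 (37) was 36 to 40 under other size factors, DESeq2, limma, no filter, fewer libraries and scaling from genes outside photosynthesis, and 31 with library totals. Leaving out each library in turn gave 32 to 38, the lowest without Columbia-0 replicate 1. Against the mean of the FACT mutants (37) these settings gave 36 to 40, library totals 30, and leaving out each library 29 to 38, the lowest without nrpb2-3 replicate 3. In the other 3 comparisons, all settings gave 0 called members, and leaving out each library gave 0 to 0. With the replicate block, 40 members were called lower in nrpb2-3 against Columbia-0, so that LHCB1.4, LHCB4.2 and LHCA6 gained a call. Against the FACT mutants, where the pairing held, 40 were called lower, so that LHCB1.2, LHCB1.4 and LHCB4.2 gained a call. Elsewhere the replicate block gave 0. Over single members, 569 of 600 values against Columbia-0 kept their call and direction, 20 lost the call and 11 gained one, and against the FACT mutants 678 of 720 kept both, 32 lost and 10 gained, with 0 reversed in either. Among the listed genes named, NOL in nrpb2-3 against Columbia-0 turned to 0.034 with library totals (adjusted p = 0.83), and the cause was not tested.

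Depth was not the limit for these abundant genes; the spread between 3 libraries was. In ssrp1-2 and spt16-2 the intervals of most single members leave room for falls smaller than 1 on the log2 scale. Directions in nrpb2-3 are relative to the bulk of its transcripts.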
